A study of Mus musculus with 8 samples.

Results

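WNT and R-spondin signalling is represented here by 10 genes of the mouse ovarian follicle: the ligand gene Wnt4, the receptor genes Fzd1 and Fzd4, the co-receptor gene Lrp6, the R-spondin gene Rspo1, the R-spondin receptor genes Lgr4 and Lgr5, the ubiquitin ligase gene Znrf3, the target gene Axin2 and Ctnnb1, which encodes beta-catenin. They were chosen by name for their roles in the pathway, with earlier results of these data known. All 10 were found once each among the 55157 genes of the deposited table. Ovaries of Kunming mice, which are outbred, were taken on postnatal day 21, and follicles of type 7 to 8, a class of growth stage, were isolated from them. The 4 control libraries were made 24 hours after pregnant mare serum gonadotropin (PMSG, which acts like follicle-stimulating hormone) given with normal saline. The 4 melatonin libraries were made 24 hours after PMSG given with melatonin. Every library is therefore from a gonadotropin-primed follicle, and the only contrast is melatonin against saline. Doses are not in the labels, nor is the origin of replicates (single animals or pools). P-values therefore measure only the spread among the 8 samples, and that spread may be technical.

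WNT proteins are secreted ligands that bind a Frizzled receptor together with an LRP co-receptor at the cell surface. Binding holds back the complex that otherwise marks beta-catenin for destruction, and beta-catenin then enters the nucleus and acts with TCF/LEF factors on target genes. R-spondins bind LGR receptors and take the ubiquitin ligases ZNRF3 and RNF43 away from Frizzled receptors, which leaves more receptor at the surface. In the mammalian ovary WNT4 and R-spondin 1 are known for promoting female gonad development, and WNT4 and beta-catenin act in granulosa cells of growing follicles.

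AXIN2 is a negative regulator that is itself a target of beta-catenin, so its transcript is widely used as a readout of the pathway. Because TCF/LEF factors bind DNA at a core with the letters CTTTGA, the 250 bases before each RefSeq gene start were searched for these letters on both strands. No other motif was searched. RefSeq windows (GRCm38.p6) were present for 7 of the 10 genes, namely Lgr4, Rspo1, Wnt4, Fzd1, Fzd4, Ctnnb1 (2 windows) and Axin2. The letters were found in 1 of these genes, Fzd1, and in 13.8% of all 32851 promoter windows of that length. The windows of Axin2, as the usual readout, of Lgr4, which had the largest estimate below, and of Fzd1, which holds the match, are given from 5′ to 3′ on the strand of the gene. Capitals mark the match, which starts 242 bases before the Fzd1 start and reads as CTTTGA on the opposite strand. The window of Axin2 is chr11:108920099-108920348 on the plus strand, that of Lgr4 is chr2:109917397-109917646 on the plus strand, and that of Fzd1 is chr5:4758217-4758466 on the minus strand.
Axin2: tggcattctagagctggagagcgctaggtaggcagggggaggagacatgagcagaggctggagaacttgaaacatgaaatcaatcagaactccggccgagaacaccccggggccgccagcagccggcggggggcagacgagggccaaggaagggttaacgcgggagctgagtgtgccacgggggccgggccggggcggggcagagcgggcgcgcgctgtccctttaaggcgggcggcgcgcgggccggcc
Lgr4: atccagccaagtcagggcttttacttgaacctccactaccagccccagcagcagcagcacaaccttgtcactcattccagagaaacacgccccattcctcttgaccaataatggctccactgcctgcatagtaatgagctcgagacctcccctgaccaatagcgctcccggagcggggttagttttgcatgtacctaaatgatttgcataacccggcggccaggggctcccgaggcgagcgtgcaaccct
Fzd1: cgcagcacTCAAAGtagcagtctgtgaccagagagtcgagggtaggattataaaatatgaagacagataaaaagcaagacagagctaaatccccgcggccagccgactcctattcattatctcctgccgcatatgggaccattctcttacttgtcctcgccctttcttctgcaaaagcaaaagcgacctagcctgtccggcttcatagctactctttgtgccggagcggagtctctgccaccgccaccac
A match describes these letters and does not show a bound site, and a window without one says nothing of TCF/LEF binding elsewhere.

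Follicle identity and depth were as follows. All 8 granulosa and all 9 oocyte markers averaged at least 1 FPKM (fragments per kilobase, scaled to the depth of each library, so a level already divided by gene length). So did 7 of 9 theca, 9 of 9 stromal, 4 of 7 smooth muscle and pericyte and 6 of 8 endothelial markers. The same held for 6 of 9 surface epithelium and 6 of 8 leukocyte markers. Transcripts on the lists of other cell types were thus present, and the cells that carried them were not identified. The summed level of the granulosa markers did not overlap between groups, at 6981 to 8755 FPKM in control and 5981 to 6644 in melatonin. Most of that sum was 1 gene, Inha, at 5883 to 7333 FPKM in control and 4985 to 5646 FPKM in melatonin. Taken singly, 2 of the 8 granulosa markers (25%) did not overlap between groups, against 11.7% of all genes tested. Of the 8 granulosa markers 7 had a negative log2 fold change (median -0.27). At an unadjusted p under 0.05 there were 2 (25%), against 19.1% of all genes tested, with 0 passing the adjusted threshold (limma). Theca markers summed to 81.9 to 94.2 FPKM in control and to 61.7, 62.2, 66.3 and 91.2 FPKM in melatonin replicates 1 to 4. Only melatonin replicate 4 thus lay in the control range. Of the 7 theca markers tested, 3 (42.9%) were lower at an unadjusted p under 0.05 (limma), against 9.74% of all genes tested. Again 0 passed the adjusted threshold. Of the same 7, 5 had a negative and 2 a positive log2 fold change (median -0.16). Log2 fold changes were also negative for 7 of 9 oocyte, 8 of 9 stromal and 3 of 4 tested smooth muscle and pericyte markers. The same held for 6 of 6 tested endothelial, 6 of 6 surface epithelium and 6 of 6 leukocyte markers. Medians of these other lists ran from -0.43 (leukocyte) to -0.12 (oocyte), beside -0.0099 over all genes tested. The part of these markers' cells in the levels of the 10 genes was not tested. In bulk samples fewer cells of a type and less RNA per cell cannot be told apart. The fragment totals implied by the FPKM values were 17451111 to 22034311 for control libraries and 18553188 to 23649204 for melatonin libraries. Across 14738 genes, which are not independent replicates, pairs of control libraries correlated at 0.969 to 0.976 (Pearson), pairs of melatonin libraries at 0.975 to 0.980, and mixed pairs at 0.961 to 0.977.

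Levels of the 10 genes covered a wide range. Ctnnb1 was far above the rest at a mean of 99.5 FPKM over the 8 libraries, higher than 97.5% of tested genes. Lgr4 (20.4 FPKM) and Lrp6 (17.5) came next, then Wnt4 (8.14), Fzd4 (4.64), Axin2 (4.18) and Znrf3 (4.13). Rspo1 (2.27 FPKM) and Fzd1 (2.20) were low, and Lgr5 (0.73) was the lowest of the set. Neighbours in this order could not always be separated: Rspo1 was above Fzd1 in 4 of 8 libraries, Axin2 above Znrf3 in 5 of 8, Fzd4 above Axin2 in 6 of 8, and both Lgr4 above Lrp6 and Wnt4 above Fzd4 in 7 of 8. The steps from Ctnnb1 to Lgr4, from Lrp6 to Wnt4, from Znrf3 to Rspo1 and from Fzd1 to Lgr5 held in 8 of 8 libraries, with no overlap of the ranges.

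None of the 10 genes passed the test for a difference between melatonin and control follicles. With limma on log2(FPKM + 1), 0 of the 9 genes that averaged at least 1 FPKM had an adjusted p under 0.05, and the same was true of 0 of 14738 genes tested (0%). At an unadjusted p under 0.05 the set had 0 of 9 genes with limma, against 19.1% of all genes tested. Limma-voom on recovered fragments gave 0 adjusted calls among 13760 genes (0%) and, at an unadjusted p under 0.05, 1 of the 9 genes, Lgr4, against 19.4% of all. The groups overlapped in all 10 genes, while they did not overlap in 11.7% of all genes tested. Log2 fold changes of the 9 genes ran from -0.10 to 0.24 with 6 positive and 3 negative and a median of 0.025, beside a median of -0.0099 over all genes tested.

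**Figure D1:**
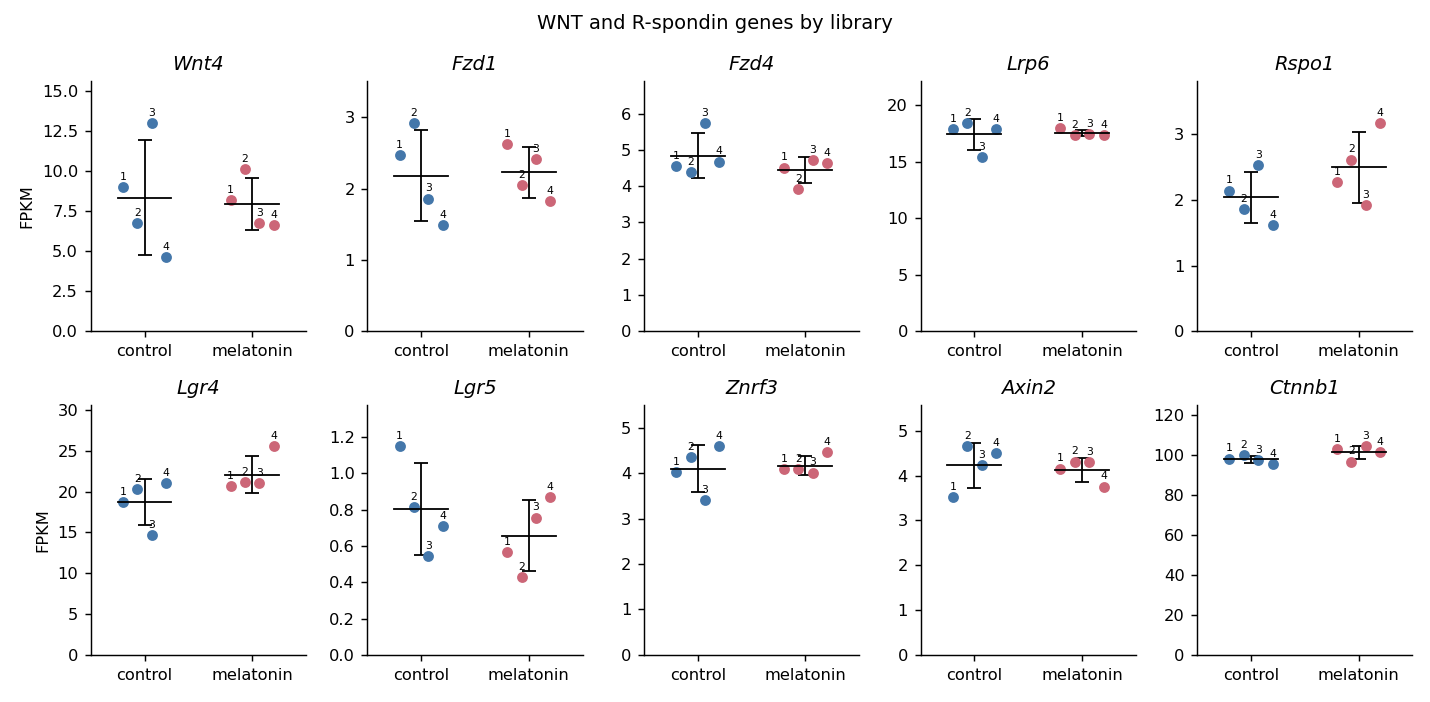
Level of each of the 10 genes in FPKM (vertical axis, from 0) in control (blue) and melatonin (red) libraries; each point is a library with its replicate number, the bar is the mean and the whiskers are the SD of 4 libraries. Points of the groups overlap in every panel, and Wnt4 has the largest within-group SD of the 9 tested genes of the set, from 4.62 to 13.0 FPKM in control.

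The ligand gene Wnt4 (ENSMUSG00000036856, chromosome 4, 137277489 to 137299726) had the largest within-group SD, on the log2(FPKM + 1) scale, of the 9 tested genes of the set. Its values in control replicates 1 to 4 were 8.98, 6.75, 13.0 and 4.62 FPKM, and those in melatonin replicates 1 to 4 were 8.19, 10.1, 6.77 and 6.63 FPKM. The 4 melatonin values lay entirely inside the control range, whose highest value was 2.82 times the lowest. Control averaged 8.35 ± 3.59 FPKM and melatonin 7.93 ± 1.62 FPKM (SD, n = 4 each). The log2 fold change was -0.0027 ± 0.26 (SE; 95% interval -0.60 to 0.59; limma adjusted p = 0.997), so a fold between 0.66 and 1.51 on the FPKM + 1 scale lay within the interval. Without control replicate 3, the highest library, the log2 fold change was 0.22, and without control replicate 4, the lowest, it was -0.22. Wnt4 rested on 427 to 1204 fragments per library, for which counting alone gives a coefficient of variation of 3.74%, while the observed one was 43.1% in control and 20.4% in melatonin. Its within-group SD on the log2(FPKM + 1) scale was above that of 95.2% of the 500 tested genes nearest to it in level.

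Rspo1 (ENSMUSG00000028871, chromosome 4, 124986430 to 125009099), the R-spondin of the developing ovary, was close to the detection filter. Control replicates 1 to 4 had 2.14, 1.86, 2.53 and 1.62 FPKM and melatonin replicates 1 to 4 had 2.27, 2.61, 1.92 and 3.17 FPKM. Melatonin replicates 1 and 3 lay within the control range and replicates 2 and 4 lay above it. The log2 fold change was 0.20 ± 0.14 (SE; 95% interval -0.11 to 0.51; limma adjusted p = 0.448). It was 0.11 without melatonin replicate 4, 0.13 without control replicate 4 and 0.31 with limma-voom. With 63 to 131 fragments per library, counting alone gives a coefficient of variation of 10.4%, against 19.2% observed in control and 21.4% in melatonin.

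The Frizzled receptor genes of the set, Fzd4 and Fzd1, showed no detectable difference. Fzd4 (chromosome 7, 89404355 to 89413134), a receptor also known from blood vessels, had 4.54, 4.39, 5.75 and 4.68 FPKM in control replicates 1 to 4. It had 4.51, 3.93, 4.72 and 4.63 FPKM in melatonin replicates 1 to 4. Control replicate 3 stood above the other 7 libraries, which lay between 3.93 and 4.72 FPKM. The log2 fold change was -0.097 ± 0.087 (SE; limma adjusted p = 0.565), -0.026 without control replicate 3 and -0.13 without control replicate 2. Endothelial markers were detected beside it: 6 of 8 averaged at least 1 FPKM, none was at 0 in any library, and their summed level was 11.7 to 17.4 FPKM in control and 9.65 to 14.1 in melatonin. Their part in the Fzd4 level was not tested. Fzd1 (chromosome 5, 4753839 to 4758035) had 2.46, 2.92, 1.86 and 1.48 FPKM in control and 2.62, 2.05, 2.41 and 1.82 FPKM in melatonin replicates 1 to 4, with all melatonin values inside the control range. Its log2 fold change was 0.035 ± 0.15 (SE; limma adjusted p = 0.919).

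The co-receptor gene Lrp6 (chromosome 6, 134446476 to 134566965) was among the steadier genes. Control replicates 1 to 4 had 17.9, 18.5, 15.4 and 17.9 FPKM and melatonin replicates 1 to 4 had 18.0, 17.4, 17.4 and 17.4 FPKM. Control replicate 3 was the lowest, and the other 7 libraries lay between 17.4 and 18.5 FPKM. Limma gave a log2 fold change of 0.012 ± 0.059 (SE; 95% interval -0.12 to 0.15; limma adjusted p = 0.931). Counting rested on 4407 to 5820 fragments per library.

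Lgr4 (ENSMUSG00000050199, chromosome 2, 109917647 to 110014257), the main R-spondin receptor gene of these follicles, had the largest estimate of the set. Control replicates 1 to 4 had 18.7, 20.3, 14.7 and 21.0 FPKM and melatonin replicates 1 to 4 had 20.7, 21.1, 21.0 and 25.5 FPKM. Control replicate 3 was the lowest library and melatonin replicate 4 the highest, and the other 6 lay between 18.7 and 21.1 FPKM. Control averaged 18.7 ± 2.83 FPKM and melatonin 22.1 ± 2.31 FPKM (SD, n = 4 each), with a log2 fold change of 0.24 ± 0.11 (SE; 95% interval -0.025 to 0.498; limma adjusted p = 0.301). The estimate was 0.13 without control replicate 3, 0.17 without melatonin replicate 4 and 0.295 without control replicate 4. It was 0.22 after trends with GC content and exon length were removed from each library, and 0.27 with quantile normalization and with limma-voom. Of all genes tested, 80.7% had a smaller log2 fold change in size.

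Lgr5 (ENSMUSG00000020140, chromosome 10, 115450311 to 115587780), a receptor and target gene known as a stem cell marker and present in ovarian surface epithelium, was below the filter. Control replicates 1 to 4 had 1.15, 0.82, 0.54 and 0.71 FPKM and melatonin replicates 1 to 4 had 0.57, 0.43, 0.76 and 0.87 FPKM. The highest value was in control and the lowest in melatonin, and the other 6 libraries were intermixed. Without a filter its log2 fold change was -0.12 ± 0.14 (SE; limma adjusted p = 0.742 over 34898 genes). It was -0.033 without control replicate 1, -0.052 without melatonin replicate 2 and -0.19 without control replicate 3. It was -0.25 with a pseudocount of 0.1 and -0.27 with limma-voom. It was detected in every library, by 95 to 236 fragments. Of 9 surface epithelium markers 6 averaged at least 1 FPKM, none was at 0 in any library, and their sum was 26.5 to 44.9 FPKM in control and 22.5 to 32.0 in melatonin. Control replicate 1 had the highest value of both Lgr5 and this sum, and the part of these cells in the levels of Lgr5 and Rspo1 was not tested.

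Znrf3 (chromosome 11, 5276324 to 5444847), whose product removes Frizzled receptors from the membrane, had 4.03, 4.36, 3.41 and 4.59 FPKM in control and 4.09, 4.10, 4.02 and 4.47 FPKM in melatonin replicates 1 to 4. All melatonin values lay inside the control range. Its log2 fold change was 0.025 ± 0.082 (SE; limma adjusted p = 0.893).

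The readout gene Axin2 (ENSMUSG00000000142, chromosome 11, 108920349 to 108950783) was at nearly the same level in each group. Control replicates 1 to 4 had 3.53, 4.65, 4.23 and 4.50 FPKM and melatonin replicates 1 to 4 had 4.15, 4.31, 4.31 and 3.75 FPKM. All melatonin values again fell inside the control range. The means were 4.23 ± 0.50 and 4.13 ± 0.26 FPKM (SD, n = 4 each), with a log2 fold change of -0.023 ± 0.083 (SE; 95% interval -0.21 to 0.17; limma adjusted p = 0.900). The interval holds folds from 0.86 to 1.12 on the FPKM + 1 scale, and each library gave 389 to 546 fragments.

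Ctnnb1 (ENSMUSG00000006932, chromosome 9, 120929216 to 120960507), which encodes the transducer beta-catenin, had the smallest within-group SD, on the log2(FPKM + 1) scale, of the 9 tested genes of the set. Control replicates 1 to 4 had 98.1, 99.9, 97.2 and 95.2 FPKM and melatonin replicates 1 to 4 had 103, 96.6, 104 and 101 FPKM. Melatonin replicates 1, 3 and 4 were above all control libraries and replicate 2 was within their range. The log2 fold change was 0.052 ± 0.043 (SE; 95% interval -0.046 to 0.150; limma adjusted p = 0.531), which holds folds from 0.97 to 1.11. After quantile normalization it was 0.13, with an adjusted p of 0.224 (limma). Its within-group SD on the log2(FPKM + 1) scale was larger than that of only 1.8% of the 500 tested genes nearest to it in level. The transcript level says nothing of beta-catenin protein, on which WNT signalling mainly acts.

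**Figure D2:**
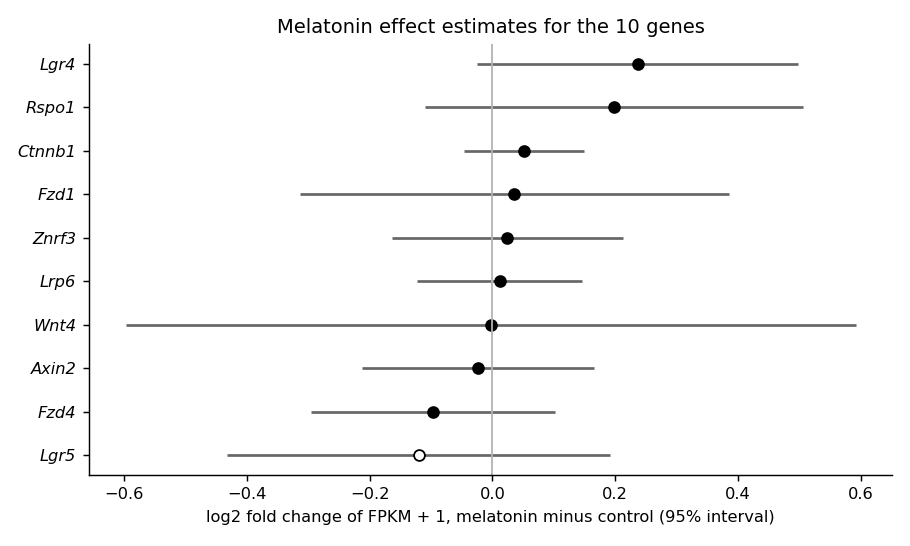
Log2 fold change of FPKM + 1, melatonin minus control, for the 10 genes (horizontal axis), with points for limma estimates and lines for 95% intervals; the open point, Lgr5, comes from the fit without a filter. All intervals include 0, and they are narrowest for Ctnnb1 (-0.046 to 0.150) and widest for Wnt4 (-0.60 to 0.59).

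Control replicate 3 had the highest summed level of the 8 libraries for both granulosa markers (8755 FPKM) and leukocyte markers (43.0 FPKM, against 12.8 to 25.2 in the other controls), and the part of these cells in the values of the set was not tested. Without this library the median log2 fold change of the 9 tested genes was -0.0086 in place of 0.025. Then 0 of the 9 had an unadjusted p under 0.05 (limma), against 14.8% of all genes tested.

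The set was then placed among 84 other genes of the pathway, of which 49 averaged at least 1 FPKM. None passed the threshold (limma, 0 of 49), and 8 had an unadjusted p under 0.05. Of these 6 were higher with melatonin, against 9.4% of all genes tested, and 2 were lower, against 9.74%. The shares, 16.3% of the 49 at an unadjusted p under 0.05 and 12.2% without overlap of the groups, were near the 19.1% and 11.7% of all genes tested. Log2 fold changes had a median of -0.021, with 23 positive and 26 negative.

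**Figure D3:**
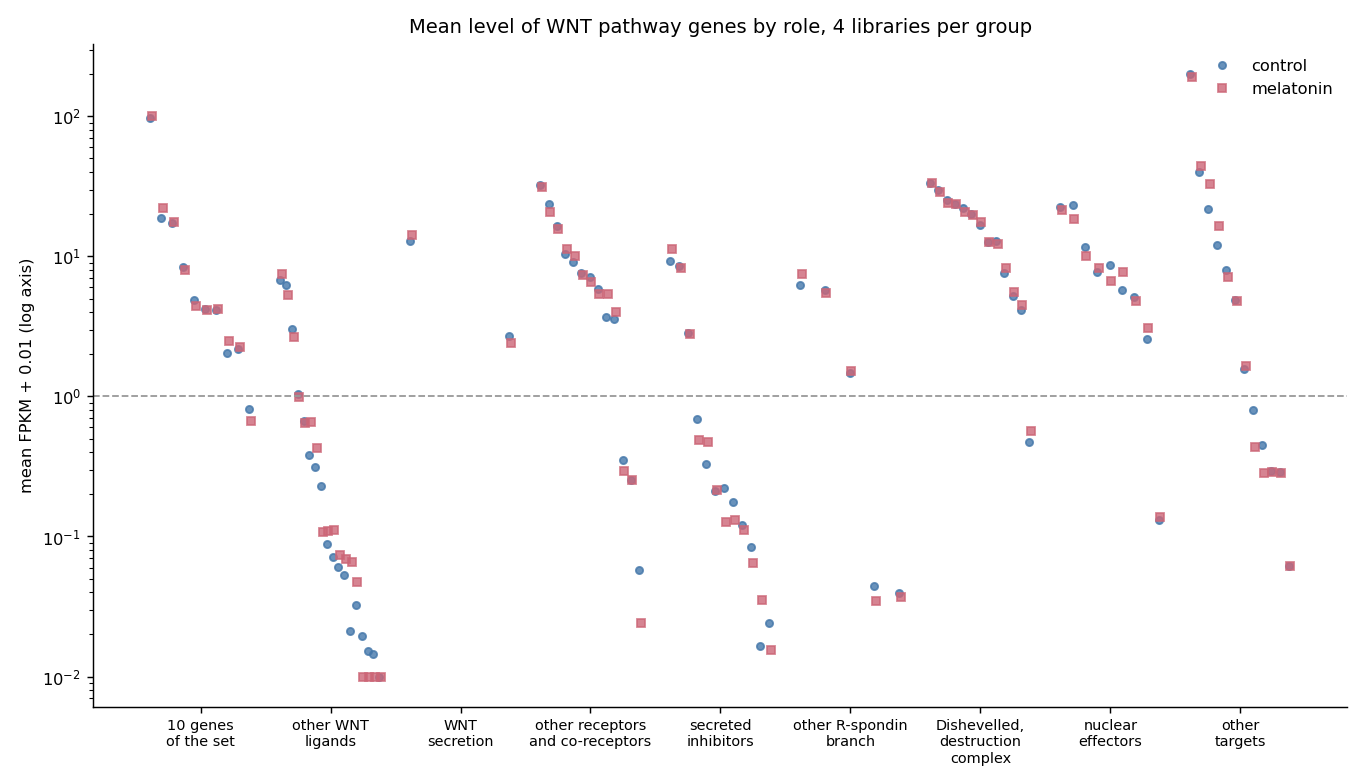
Mean level of each pathway gene by role, as FPKM + 0.01 on a log axis, in control (circles) and melatonin (squares), each the mean of 4 libraries; the dashed line is the filter of 1 FPKM. Receptors, the destruction complex and nuclear effectors lie mostly above the line, while 14 of 19 WNT ligand genes, Wnt4 included in the 19, lie below it.

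Among ligands, 5 of 19 WNT genes averaged at least 1 FPKM, and 10 of 19 averaged under 0.1 FPKM. Wnt4 made up 29.5% ± 6.40 of the summed WNT ligand FPKM in the control group and 29.7% ± 4.10 with melatonin (SD, n = 4 each). For Wnt6 the control mean was 6.82 ± 1.46 FPKM and the melatonin mean 7.49 ± 0.68, and Wnt5b, a ligand best known outside the beta-catenin branch, had 6.28 ± 1.13 and 5.28 ± 0.74 FPKM (limma adjusted p = 0.592 and 0.424). Wnt4, Wnt6 and Wnt5b were thus of similar level. The 2 genes of WNT secretion were Wls, the carrier of WNT proteins, with 12.9 ± 0.42 against 14.2 ± 1.24 FPKM, and Porcn, which attaches their lipid, with 2.68 ± 0.16 against 2.41 ± 0.16 (limma adjusted p = 0.310 and 0.418).

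Of the 10 Frizzled genes 8 averaged at least 1 FPKM. Fzd1 and Fzd4 together gave 13.7% ± 0.79 of the summed Frizzled FPKM in the control group and 12.9% ± 0.94 with melatonin (SD, n = 4 each), so most Frizzled transcript came from other family members. The highest of the other receptors and co-receptors was Ptk7, at 32.3 ± 0.49 and 31.2 ± 3.33 FPKM. Lrp5, the paralog of Lrp6, had 22.3, 24.3, 24.7 and 22.8 FPKM in control and 21.0, 20.5, 19.0 and 21.8 FPKM in melatonin replicates 1 to 4. All melatonin values of Lrp5 were below all control values, with a log2 fold change of -0.18 ± 0.056 (SE; limma adjusted p = 0.159), while those of Lrp6 overlapped. The difference between these paralogs was not tested. Ror1, a receptor for the non-canonical branch, had 3.66 ± 1.04 against 5.39 ± 0.80 FPKM (log2 fold change 0.47 ± 0.16 SE, limma adjusted p = 0.180), with overlapping groups. Of the 10 tested genes of this list 3 did not overlap between groups, against 11.7% of all genes tested: Lrp5 and, named after their values were seen, Fzd3 and Fzd5. Fzd3 was at 9.09 ± 0.39 against 9.98 ± 0.20 FPKM and Fzd5 at 3.59 ± 0.24 against 4.02 ± 0.054 FPKM (limma adjusted p = 0.215 and 0.276).

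In the R-spondin branch Lgr4 gave 72.7% ± 3.93 of the summed FPKM of the 3 LGR receptor genes in control and 73.0% ± 4.41 in melatonin. Lgr6 accounted for most of the remainder, at 6.21 ± 1.29 and 7.46 ± 1.24 FPKM (SD, n = 4 each; limma adjusted p = 0.413). Among the 4 R-spondin genes Rspo1 held 26.3% ± 5.69 of the summed FPKM in control and 31.2% ± 7.59 in melatonin. Rspo2, named after its values were seen, was the higher of the 2 detected at 1 FPKM or more, with 5.70 ± 0.87 and 5.49 ± 0.74 FPKM. Rnf43, the paralog of Znrf3, had 1.46 ± 0.15 and 1.51 ± 0.099 FPKM (limma adjusted p = 0.845).

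Inhibitors and the destruction complex contained no gene with an unadjusted p under 0.05 among 15 tested (limma), against 19.1% of all genes tested. Of 12 secreted inhibitor genes 3 averaged at least 1 FPKM. Frzb, a Frizzled decoy, had 9.31 ± 3.40 against 11.2 ± 4.50 FPKM and Dkk3, a divergent Dickkopf protein, had 8.57 ± 2.53 against 8.32 ± 2.89 FPKM (SD, n = 4 each). On the log2(FPKM + 1) scale the within-group SD of Frzb was above that of 97.6%, and that of Dkk3 above 94.8%, of the 500 tested genes nearest in level. Of 13 genes of the Dishevelled and destruction complex list 12 were tested. Csnk1a1, the kinase that primes beta-catenin, had 33.5 ± 0.26 against 33.6 ± 1.12 FPKM. Dvl3, a Dishevelled adaptor, had 16.7 ± 0.37 against 17.6 ± 0.47, and Apc, a scaffold of the complex, had 7.54 ± 1.06 against 8.26 ± 0.15 (limma adjusted p = 0.375 and 0.470).

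Nuclear effectors held the smallest p of the pathway. Of 8 tested, 3 had an unadjusted p under 0.05 and in the same 3 the groups did not overlap, beside 19.1% and 11.7% of all genes tested. Tcf7l2, a TCF factor, had 5.23, 6.10, 4.97 and 6.59 FPKM in control and 7.72, 7.82, 7.88 and 7.28 FPKM in melatonin replicates 1 to 4. Every melatonin value was above every control value (log2 fold change 0.37 ± 0.082 SE, limma adjusted p = 0.121). Tcf7, another TCF factor, had 24.1, 21.7, 26.6 and 20.6 FPKM in control and 19.2, 18.8, 17.4 and 19.0 FPKM in melatonin replicates 1 to 4. Here every melatonin value was below every control value (log2 fold change -0.30 ± 0.079 SE, limma adjusted p = 0.146). Neither passed the threshold. Pygo1, a beta-catenin co-activator named after its values were seen, was the third, at 2.55 ± 0.20 against 3.05 ± 0.12 FPKM (limma adjusted p = 0.191). Its paralog Pygo2 had 22.5 ± 1.08 against 21.3 ± 0.96. Of the 4 TCF/LEF genes 3 averaged at least 1 FPKM, and Lef1, named after its values were seen, was at 0.12 ± 0.015 and 0.13 ± 0.052 FPKM.

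Among 12 other target genes of the pathway 7 were tested. Fst, which encodes follistatin and is known downstream of WNT4 in the ovary, was the highest at 200.2 ± 22.5 FPKM in control and 192 ± 12.8 in melatonin (log2 fold change -0.059 ± 0.091 SE, limma adjusted p = 0.751). Bmp2, a growth factor gene, had 20.1, 23.1, 11.5 and 32.4 FPKM in control and 28.5, 29.1, 30.8 and 43.5 FPKM in melatonin replicates 1 to 4. The log2 fold change was 0.64 ± 0.28 (SE; limma adjusted p = 0.256), with control replicate 4 above 3 of the 4 melatonin values. With a library left out it ran from 0.38 (without control replicate 3, the lowest library) to 0.85. Nr0b1, a nuclear receptor gene also known downstream of WNT4, had 12.0 ± 3.88 against 16.6 ± 2.50 FPKM (log2 fold change 0.48 ± 0.20 SE, limma adjusted p = 0.246) with overlapping groups. Its log2 fold change was 0.31 without control replicate 3 and 0.66 without control replicate 4. Estimates of Axin2 and Fst were near 0 and those of Bmp2 and Nr0b1 were positive. Bmp2 and Nr0b1 were named for the smallest p of the list and Fst for its level, so this contrast follows from the choice. Of the 7 tested, 4 had a positive and 3 a negative log2 fold change (median 0.045). At an unadjusted p under 0.05 there were 2 (28.6%, limma), against 19.1% of all genes tested. The groups did not overlap in 0 of 7, against 11.7% of all. Differences between genes were not tested.

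**Figure D4:**
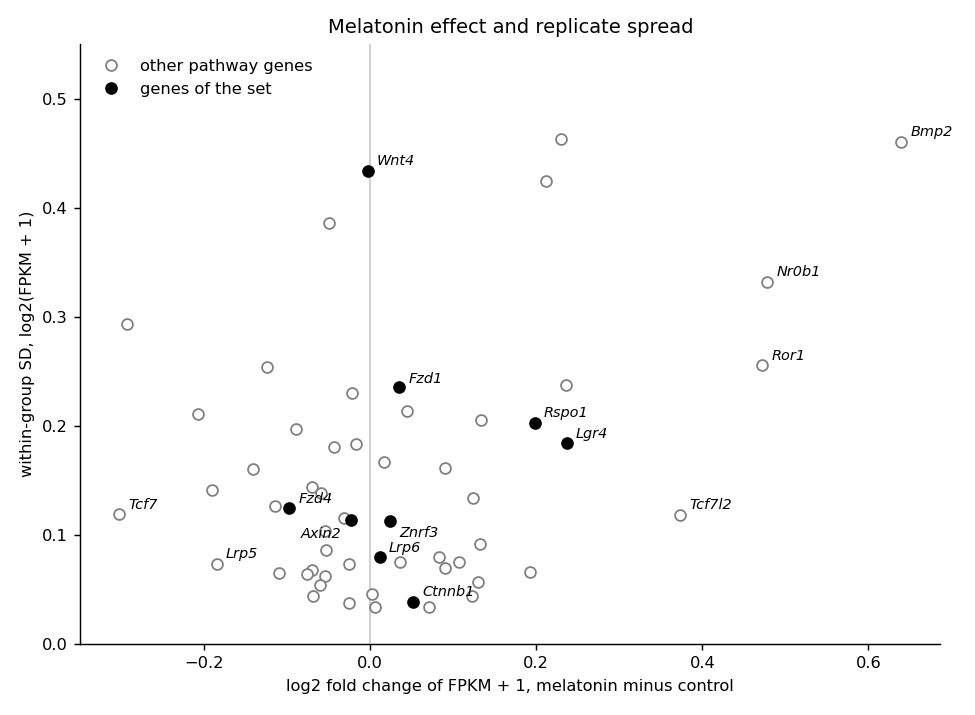
Each tested pathway gene by its log2 fold change of FPKM + 1, melatonin minus control (horizontal axis), and its within-group SD on the log2(FPKM + 1) scale (vertical axis), with the 9 tested genes of the set filled. Axin2, Znrf3, Lrp6 and Ctnnb1 lie near 0 with a small SD, Wnt4 lies near 0 with an SD of 0.43, and Tcf7l2 (0.37) and Tcf7 (-0.30) lie away from 0 with an SD of 0.12 each.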

How the data were processed

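RNA of type 7 to 8 follicles was sequenced in 4 control and 4 melatonin libraries. HISAT2 2.0.5 and the build mm10 are named in the submitters' processing notes. Which tool counted fragments, with what annotation and strand setting, is not stated in the labels or file headers. What the authors deposited is FPKM per gene, per the file headers. The sample files and the series table, which holds the same 55157 genes, had 0 differing values.

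With exon lengths and coordinates from GENCODE M21 (mm10), present for 54495 identifiers, 97.1% to 97.2% of the nonzero FPKM values in each library came out as whole fragments within 0.05. This gave the fragment totals and the fragments per gene, whose precision covers counting error only. Apc and Tcf7l2 did not come out whole.

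Genes averaging at least 1 FPKM (14738) entered a limma fit (version 3.58.1, R 4.3.3; group as the only term, variance trend on level) of log2(FPKM + 1), a scale that understates changes of low genes. P-values were Benjamini-Hochberg adjusted over all genes tested, with a threshold of 0.05. The fit was also run on simulated data with the same dispersion for every gene, so that run does not measure its power or error in these data. Alternatives were a pseudocount of 0.1, no filter, a filter of 5 FPKM, quantile and median-ratio scaling, array weights, the replicate number as a block, removal of GC and length trends (splines with 5 degrees of freedom), limma-voom on recovered fragments and leaving out each library. Python 3.11.15 with pandas 2.3.3 and matplotlib 3.10.9 made tables and plots.

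The 10 genes and the lists were chosen with earlier results of these data known. Named pathway genes are the 2 with the smallest p and the highest in level of each list, unless stated.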

Additional observations from a re-analysis of the deposited data

Results flagged for a closer look

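Of 60 groups of 4 values examined, 3 had a library far from the other 3 by Dixon's criterion, where chance gives about 1 in 20. Lgr4 was at 25.5 FPKM in melatonin replicate 4 and at 20.7 to 21.1 FPKM in the other melatonin libraries. Bmp2 was at 43.5 FPKM in the same library and at 28.5 to 30.8 FPKM in the others. Lrp6 was at 18.0 FPKM in melatonin replicate 1, against 17.37 to 17.44 FPKM in the others, a distance that is small in FPKM. Without melatonin replicate 4 the log2 fold change was 0.17 for Lgr4, in place of 0.24. The theca markers of that library summed to 91.2 FPKM, against 61.7 to 66.3 FPKM in the other melatonin libraries. The part of these cells in its values was not tested.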

How the results depend on the processing

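Each of 18 alternatives was run for the 10 genes and the 20 named pathway genes, except that the filter of 5 FPKM left out genes below it, limma-voom left out Apc and Tcf7l2, and Lgr5 was fitted without a filter throughout. No alternative called any of these 30 genes at an adjusted p under 0.05. Over all genes, 1 was called without a filter (Mir6947), 1 with the replicate block and GC and length correction together (Gm24325), and 0 to 1 with a library left out (C1rb, without control replicate 1), all named after their values were seen. Genes of the set at an unadjusted p under 0.05 numbered 2 (Lgr4 and Ctnnb1) after quantile normalization and 1 (Lgr4) with the replicate block, with the block and the GC and length correction, and with limma-voom, and 0 to 1 with a library left out (Lgr4, without control replicate 4). The shares of all genes tested at that p were 17.1% with quantile normalization, 18.8% with the block, 17.0% with the block and correction, 19.4% with limma-voom and 22.2% without control replicate 4. The median of the set ran from -0.0086 (without control replicate 3) to 0.056 (limma-voom) and was -0.0026 after quantile normalization. The direction was kept in every setting run for Fzd4, Rspo1, Lgr4, Lgr5 and Ctnnb1. Estimates near 0 changed sign. Wnt4 was at 0.0054 with a pseudocount of 0.1, 0.0034 with median-ratio scaling, 0.069 with array weights, 0.049 after the GC and length correction (with or without the block), 0.027 with limma-voom, and -0.22 to 0.22 with a library left out. Fzd1 was at -0.0026 after quantile normalization, -0.014 with array weights, and -0.077 to 0.14 with a library left out. Lrp6 was at -0.0024 with array weights, -0.070 after the GC and length correction (with or without the block), and -0.042 to 0.039 with a library left out. Znrf3 was at -0.010 after quantile normalization and -0.043 to 0.071 with a library left out. Axin2 was at 0.016 after the GC and length correction (with or without the block) and -0.090 to 0.016 with a library left out. After quantile normalization Rnf43 was at -0.0086 and Fst at 0.027; Csnk1a1 was at -0.053 after the GC and length correction (with or without the block) and -0.012 to 0.026 with a library left out, and Dkk3 at -0.25 to 0.11. The causes were not tested.

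The labels do not say whether same-numbered libraries were paired. Correlations of their deviations from the group means were 0.00074, -0.103, 0.151 and 0.038. The value for number 3 was the highest of all control and melatonin pairs, but libraries did not all correlate best with their own number. No setting called any of the 30 genes, so adjusted calls could not show an effect of the block. Over all genes the smallest adjusted p was 0.120 without the block and 0.061 with it (limma). Depth limits Rspo1 and Lgr5 most, at 63 to 236 fragments per library.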
